A study of Rattus norvegicus with 10 samples.

Results

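The distal ends of the rat autosomes were taken as the regions of a methyl-capture count table that lie on chromosomes 1 to 20 and end within 3 Mb of the largest end coordinate the table holds for their chromosome. The rule used position alone and no measured difference. It selected 13001 of the 574544 regions, with 205 regions on chromosome 18 and 1218 on chromosome 12 as the smallest and the largest end. The study asked how DNA methylation in the hippocampus differs between epileptic rats and their controls. Methylated fragments were captured from hippocampal DNA of each rat, and the resulting library was sequenced. All animals were male Sprague-Dawley rats with a bipolar electrode in the left lateral nucleus of the amygdala. In the SE group (rats 6 to 10) status epilepticus, a seizure state that does not end by itself, was evoked by electrical pulses through that electrode and stopped with diazepam. Control rats (rats 1 to 5) were sham operated, of the same age, and carried the electrodes without being stimulated. Tissue holding CA3 and the dentate gyrus of the left hippocampus was collected 3 months after SE, and the labels call it dorsal hippocampus. Control rat 2 and SE rat 7 carry the label discarded, which left 4 control and 4 SE rats for the comparison. Spontaneous seizures were seen in all stimulated rats by the study's methods. The tissue is a mixture of neurons, glia and vessel cells, so a change in the mix of cells and a change in methylation within cells cannot be told apart.

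DNA methylation in mammals is placed mainly on the cytosine of CpG dinucleotides. Methyl-capture binds fragments through a protein domain that recognizes methylated CpG sites, so the tag count of a region rises with the amount of methylated DNA and with the number of CpG sites in the fragment, and it is not the methylation level of a single cytosine. The ends of mammalian chromosomes, next to the telomeres, are often rich in genes and in CpG sites and are known for dense methylation.

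Whether the distal 3 Mb resemble the rest of the table was asked first. The distal regions had a median length of 470 bp, against 457 bp over all regions. Local density was counted for every region as the number of other regions of the table within 50 kb of its midpoint. Its median was 32 in the distal regions and 32 over the autosomes, and the distal ends held 217 regions per Mb against 223 over the autosomes. The ends differed among themselves much more than from the genome. Median density was between 8 and 14 at the ends of chromosomes 2, 9, 14, 16, 18 and 20, which are called sparse ends below, and between 25 and 45 at the other 14 ends. This division was made after the values had been seen. Because the rule fixes 3 Mb and not a number of regions, the 6 sparse ends held 1634 of the 13001 regions.

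The 8 libraries used had between 5499370 and 7179519 tags in the table, and the groups overlapped in this total. The 2 discarded libraries had 7154696 tags in control rat 2 and 14655629 tags in SE rat 7. In the 8 rats used between 0.30% and 0.738% of the distal regions had no tag. In SE rat 7 this share was 12.5%.

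Of all tags, a larger share fell into distal regions in SE rats than in controls. The share was 2.40%, 2.30%, 2.27% and 2.30% in control rats 1, 3, 4 and 5. It was 2.44%, 2.42%, 2.43% and 2.45% in SE rats 6, 8, 9 and 10. Every SE rat was above every control rat, and control rat 1 was the control nearest to them. The mean was 2.32% ± 0.055 in controls and 2.44% ± 0.014 in SE (SD, n = 4 each), a difference of 0.118 percentage points. The direction differed between the kinds of end. At the 14 denser ends the share was 2.05% ± 0.0694 in controls and 2.20% ± 0.0225 in SE, and every SE rat was above every control rat. At the 6 sparse ends the share was 0.246%, 0.259%, 0.281% and 0.274% in control rats 1, 3, 4 and 5 and 0.237%, 0.245%, 0.229% and 0.222% in SE rats 6, 8, 9 and 10. There every SE rat was below every control rat, with a gap between control rat 1 and SE rat 8 that was small beside the spread of either group. The discarded rats were on the opposite side of their groups, with a distal share of 2.61% in control rat 2 and 2.20% in SE rat 7. With all 10 libraries the difference between the group means was 0.0124 percentage points.

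**Figure D1:**
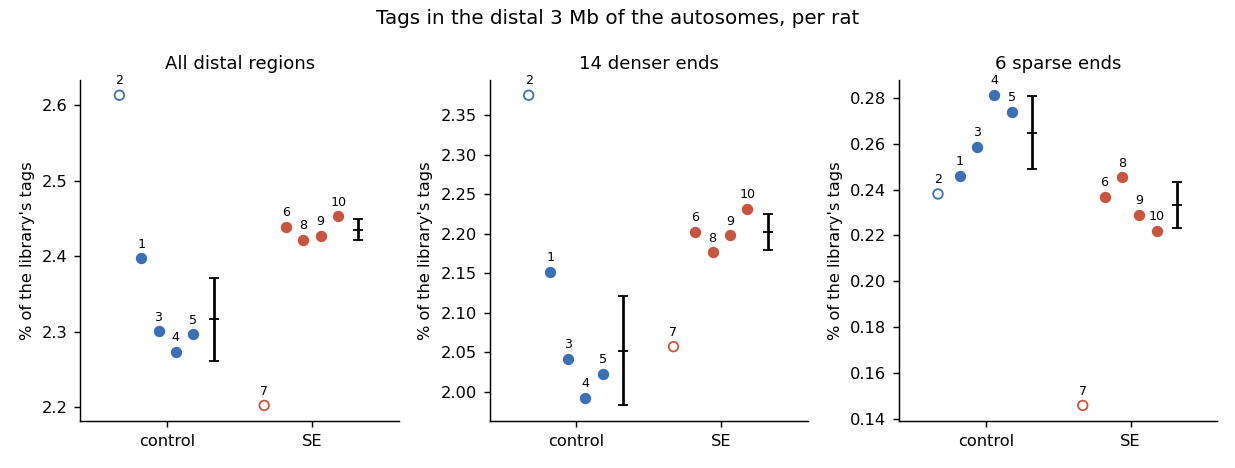
Share of each library's tags (percent, vertical axes, which do not start at 0) that fell into all distal regions, the 14 denser ends and the 6 sparse ends. Points are rats with their numbers, open circles are the 2 discarded rats, and bars give mean and SD of the 4 rats used per group. Among the 8 rats used, SE rats lie above the controls in the first and second panel and below them in the third, and the discarded rats do not follow this order.

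Single regions were then tested with edgeR's quasi-likelihood test. The filter on low counts, fitted to the whole table, left 7242 of the 13001 distal regions (55.7%), and 5759 were not tested. The regions left untested held 0.574% ± 0.0126 of the tags in controls and 0.589% ± 0.00435 in SE (SD, n = 4 each), and the groups overlapped. At an unadjusted p below 0.01, 62 distal regions (0.856%) had more tags in SE and are called hypermethylated, against 0.584% of all 291987 tested regions. At the same threshold 58 distal regions (0.801%) had fewer tags in SE and are called hypomethylated, against 1.07% of all tested regions. Hypermethylated regions thus made up 51.7% of the distal calls and 35.3% of all calls. The median log2 fold change of the tested distal regions was 0.064, with 57.2% of them above 0. Over all tested regions the median was 0.0024 and 50.3% were above 0. These calls rest on unadjusted p-values. With Benjamini-Hochberg adjustment over all tested regions no distal region passed 0.05, and the smallest adjusted p of edgeR's test among them was 0.363. Over all tested regions 18 passed (0.00616%). An unadjusted p below 0.05 was reached by 512 distal regions (7.07%), against 6.90% of all tested regions. The exact test of edgeR and the Wald test of DESeq2 also gave 0 distal regions at an adjusted p below 0.05. The smallest value belonged to chr6:146990788-146992035, named after its values had been seen, with a log2 fold change of -1.01. It passed with at least 10 counts in every library (adjusted p = 0.0496 in edgeR) and without control rat 1 (adjusted p = 0.0382 in edgeR).

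The groups did not overlap, with every SE rat above every control rat, in 167 distal regions (2.31%), against 1.69% of all tested regions. Every SE rat was below every control rat in 117 distal regions (1.62%), against 1.94% of all tested regions. The hypermethylated distal regions had a median log2 fold change of 0.97, and the hypomethylated ones a median size of 1.06 in the other direction. Of the hypermethylated regions 21 of 62 lay within 50 kb of another hypermethylated distal region, and of the hypomethylated regions 11 of 58 lay within 50 kb of another hypomethylated one. The same counts over all called regions are not given here, so no trait of the distal ends can be read from them.

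The median local density was 38 for the hypermethylated and 9 for the hypomethylated distal regions. Over all tested regions it was 39 and 14. The 14 denser ends held 61 of the 62 hypermethylated regions, and the 6 sparse ends held 34 of the 58 hypomethylated ones although only 819 of the 7242 tested regions lay there. At the sparse ends 0.122% of the tested regions were hypermethylated and 4.15% hypomethylated, and the median log2 fold change was -0.22. At the denser ends 0.950% were hypermethylated and 0.374% hypomethylated, and the median was 0.092. Over all tested regions 0.584% were hypermethylated and 1.07% hypomethylated. Interior regions at the density of each sparse end, described below, had hypomethylated shares between 2.20% and 4.26%. Shares of this size were thus also seen away from the ends. Leaving out each rat in turn, the number of hypomethylated regions at the sparse ends was between 23 and 36 and the median there between -0.26 and -0.18.

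Local density moved with the measurement across the whole table. A density slope was computed for every library as the change in its log2 CPM, centred on the average over the 8 libraries, for each doubling of (local density + 1). The slope was 0.022, -0.056, -0.110 and -0.079 in control rats 1, 3, 4 and 5 and 0.044, 0.021, 0.071 and 0.086 in SE rats 6, 8, 9 and 10. Control rat 1 was just above SE rat 8, so that the groups overlapped. Calls were therefore also made with offsets that remove each library's trend on local density. With these offsets 63 distal regions were hypermethylated (0.870%, against 0.573% of all tested regions) and 21 hypomethylated (0.290%, against 0.656% of all tested regions). At the sparse ends 6 were then hypermethylated and 8 hypomethylated, with a median log2 fold change of -0.028. At the denser ends 57 were hypermethylated and 13 hypomethylated, with a median of 0.076.

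To compare the distal ends with the interior at like density, autosomal regions more than 3 Mb from both the largest end and the smallest start were averaged in 10 bins of local density and weighted by the distal regions in each bin. The mean log2 fold change was 0.047 over 7242 distal regions and -0.014 over 279558 interior regions weighted in this way, a difference of 0.061. Hypermethylated regions made up 0.856% of the distal and 0.570% of the weighted interior regions. Hypomethylated regions made up 0.801% of the distal and 1.10% of the weighted interior regions. The weighted interior regions were similar in length, with a mean of 672 bp against 687 bp, and in mean count per library, with 14.5 against 15 counts.

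The distal mean lay above the interior mean in 10 of 10 density bins, by 0.036 to 0.079 on the log2 scale. In the sparsest bin, with at most 11 regions within 50 kb, the mean was -0.23 in distal and -0.27 in interior regions, and hypomethylated regions made up 4.83% and 4.41%. In the densest bin, with at least 52 regions, the mean was 0.17 in distal and 0.089 in interior regions. The share of hypermethylated regions was higher in distal regions in 9 of the 10 bins, and the densest bin was the exception with 0.583% against 0.910%. The share of hypomethylated regions was lower in distal regions in 8 bins.

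**Figure D2:**
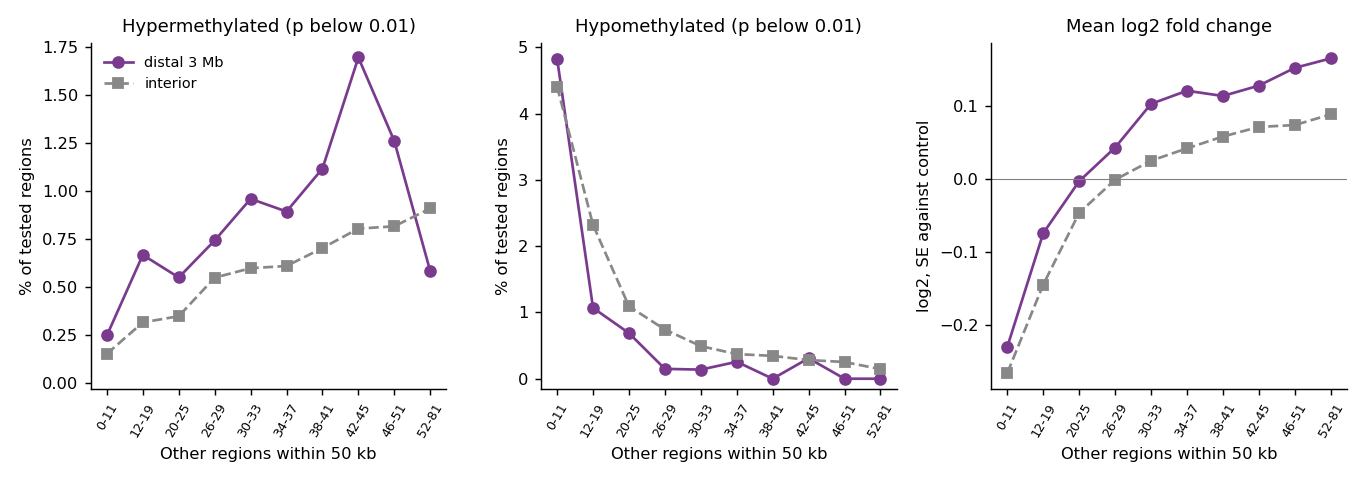
Share of tested regions called hypermethylated and hypomethylated (percent, edgeR, p below 0.01) and mean log2 fold change of SE against control (vertical axes) in 10 bins of local density (horizontal axis, other regions within 50 kb). Purple circles are distal regions and grey squares are interior regions. In both sets the share of hypomethylated regions falls and the mean rises with density, and the distal mean is above the interior mean in every bin.

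The same difference was computed in every rat from log2 CPM centred in the same way, as the mean of the tested distal regions less the density-weighted value of the interior. It was 0.0092, -0.031, -0.047 and -0.038 in control rats 1, 3, 4 and 5. It was 0.025, 0.018, 0.027 and 0.038 in SE rats 6, 8, 9 and 10. All SE rats were above all controls, and control rat 1 was the only control above 0. Leaving out any single rat, another density radius (25 or 100 kb) or interior regions of the same chromosome kept the fitted difference between distal and interior above 0, whereas with all 10 libraries it was -0.016.

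Distance from the largest end was followed inward in bands of 3 Mb. The mean log2 fold change less that of interior regions at the same density was 0.061 in the first band and 0.0098 in the band from 3 to 6 Mb. In the 9 bands from 3 to 30 Mb it was between -0.023 and 0.027. In the first band the 4 SE rats were above the 4 controls in this measure. They were also above them from 24 to 27 Mb, the highest of the other 9 bands, and below them from 9 to 12 Mb, the lowest. Within the distal 3 Mb density itself fell toward the end. The last 0.5 Mb had a median density of 17 with 2 of 689 tested regions hypermethylated (0.290%) and 12 hypomethylated (1.74%). The stretch from 2 to 3 Mb had a median density of 38 with 37 of 3302 regions hypermethylated (1.12%) and 18 hypomethylated (0.545%). Just inside the limit of 3 Mb the median log2 fold change was 0.090, and just outside it, from 3 to 4 Mb, it was 0.068. In the last 0.5 Mb the mean log2 fold change was -0.027, and interior regions at the same density had a mean of -0.11.

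**Figure D3:**
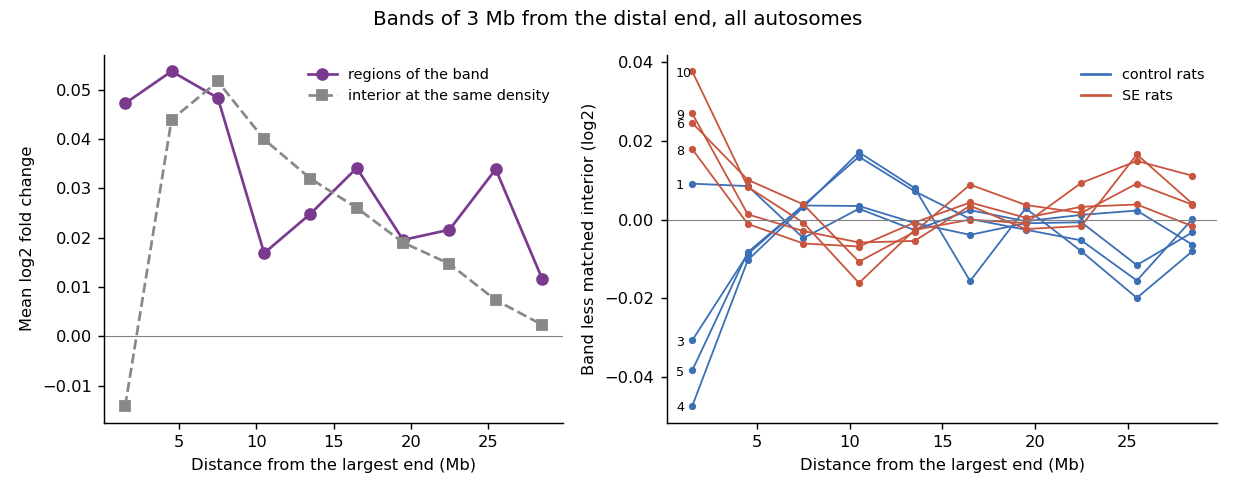
Mean log2 fold change of SE against control in bands of 3 Mb from the largest end (left, purple circles) beside interior regions at the same density (grey squares), and band less matched interior per rat (right, log2 scale, blue control and red SE rats), against distance in Mb. In the first band the 4 SE rats lie above the 4 controls, and the values of single rats in the other 9 bands are between -0.020 and 0.017.

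Each end was then treated as 1 feature, with its tags summed over all its regions, and tested with edgeR beside the other 3 Mb windows of the table. At an adjusted p below 0.05 over 918 windows, 10 of the 20 ends were higher in SE, against 28.8% of all windows, and 5 were lower, against 29.3% of all windows. Every SE rat was above every control rat at 8 ends, against 18.8% of windows, and below every control rat at 3 ends, against 19.6%. All 10 higher ends were among the 14 denser ones, and all 5 lower ends were sparse. The ends of chromosomes 6, 9, 15, 17 and 19 did not pass. The log2 fold change of an end and its median density had a Pearson r of 0.924 and a Spearman rho of 0.917 over the 20 ends. Over 864 autosomal windows, with the mean density of a window in place of the median, these coefficients were 0.817 and 0.835. The ends come from the same 8 libraries, and density is counted in the same table, so these coefficients are descriptions.

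**Figure D4:**
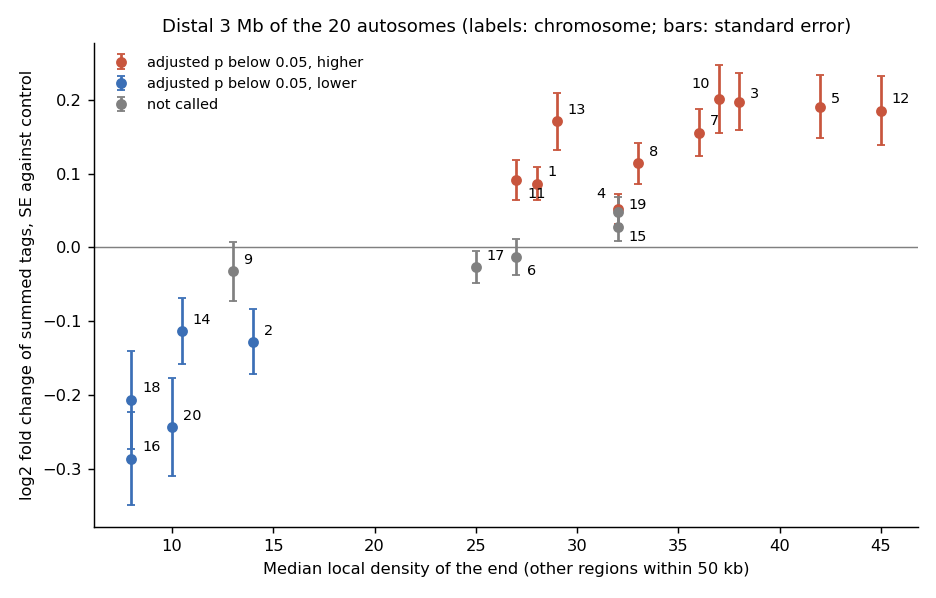
log2 fold change of the summed tags of SE against control (vertical axis) against median local density (horizontal axis, other regions within 50 kb) for the distal 3 Mb of the 20 autosomes, labelled by chromosome. Bars are standard errors and colours give the edgeR call at an adjusted p below 0.05. The ends run from -0.29 at chromosome 16 to 0.20 at chromosome 10.

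Among the higher ends chromosomes 3, 7 and 5 had the smallest p. At chromosome 3 the end (1049 regions, starting at position 168118722) had 2110, 2004, 1850 and 1906 CPM in control rats 1, 3, 4 and 5 and 2264, 2180, 2262 and 2315 CPM in SE rats 6, 8, 9 and 10. The groups did not overlap, the log2 fold change was 0.20 (standard error 0.039), and edgeR's adjusted p was 0.0096. At chromosome 7 the end (729 regions) had 1394, 1333, 1262 and 1274 CPM in the controls and 1422, 1441, 1485 and 1510 CPM in the SE rats. Its groups were apart as well, with a log2 fold change of 0.16 (standard error 0.032) and an adjusted p of 0.0096 in edgeR. Chromosome 5 had an end (1157 regions) that rose from a mean of 2236 ± 146 to 2552 ± 60.1 CPM (SD, n = 4 each), a log2 fold change of 0.19 (standard error 0.042) with an adjusted p of 0.0096 in edgeR. Chromosome 12, whose end has the most regions, rose there by 0.18 on the log2 scale (standard error 0.046, adjusted p = 0.0101 in edgeR). Leaving out each rat in turn, the ends of chromosomes 1, 3, 5, 7, 8, 10, 12 and 13 were called in all 8 fits, chromosome 11 in 7 and chromosome 4 in 2. The end of chromosome 13 includes the distal region with the most tags, chr13:108741601-108742838. That region had 643 tags in control rat 3, 1181 to 1498 in control rats 1, 4 and 5 and 1449 to 1863 in the SE rats. The call of this end without that region was not tested.

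Among the lower ends chromosomes 16, 20 and 18 had the smallest p. At chromosome 16 the end (230 regions, starting at position 87227266) had 359, 376, 422 and 409 CPM in control rats 1, 3, 4 and 5 and 332, 335, 319 and 299 CPM in SE rats 6, 8, 9 and 10. It fell by 0.29 on the log2 scale (standard error 0.062, adjusted p = 0.0096 in edgeR), with the groups apart. At chromosome 20 the end (274 regions) had 384, 410, 475 and 454 CPM in the controls and 373, 377, 360 and 346 CPM in the SE rats. It fell by 0.24 (standard error 0.067, adjusted p = 0.0127 in edgeR), also with the groups apart. The end of chromosome 18, which has the fewest regions, fell by 0.21 (standard error 0.066, adjusted p = 0.0220 in edgeR), with SE rat 8 at 308 CPM above control rat 1 at 307 CPM. Chromosomes 16 and 20 were called in all 8 fits that left out a rat, chromosome 18 in 4, and chromosomes 2 and 14 in 2 each.

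The calls at the lower ends depended on the handling of local density. With the density offsets 11 ends were higher and 0 lower. The end of chromosome 16 was then at -0.045 (adjusted p = 0.221 in edgeR) and that of chromosome 20 at -0.042 (adjusted p = 0.287 in edgeR). Chromosome 14 turned from -0.11 to 0.079 (adjusted p = 0.0428 in edgeR), and chromosome 9 passed at 0.073. Chromosome 3 was at 0.11 with these offsets (adjusted p = 0.0122 in edgeR). With upper-quartile scaling 6 ends were higher and 7 lower. With all 10 libraries no end passed in either direction.

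Per region, the share of hypermethylated regions was highest at the end of chromosome 1, with 8 of 396 tested regions (2.02%), against 0.511% of interior regions at the same density. Of these 8 regions, 5 lay within 50 kb of another hypermethylated distal region. Chromosome 13 was close, with 7 of 353 (1.98%) against 0.488%, and 0 of the 7 lay so near another. The share of hypermethylated regions was 0 at 7 ends, those of chromosomes 2, 6, 9, 16, 17, 18 and 20. These had only 102 to 312 tested regions and matched interior shares of 0.163% to 0.480%, so a count of 0 does not set them apart. The share of hypomethylated regions was highest at the end of chromosome 16, with 10 of 114 (8.77%), against 4.26% of the matched interior. There were none at 5 ends, those of chromosomes 3, 8, 10, 12 and 13, where the matched interior shares were 0.350% to 1.54%. These ends had 353 to 751 tested regions, so the matched shares correspond to only a few regions at each. Whether a count of 0 sets them apart was not tested. Against interior regions at the same density 13 of the 20 ends had a higher mean log2 fold change. The difference was highest at chromosome 7, with 0.12, and lowest at chromosome 20, with -0.10. The end of chromosome 16 was also below its matched interior, with a mean of -0.36 against -0.26.

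No distal region passed the adjusted threshold, so the single regions below are those with the smallest unadjusted p whose groups did not overlap, 5 in each direction. In all, 28 of the 62 hypermethylated and 33 of the 58 hypomethylated distal regions had groups apart. The share over all called regions is not given here, so these counts do not set the distal regions apart. An exact two-sided permutation test of log2(CPM + 0.1) gave p = 0.0286 for each of the regions named here whose groups were apart, which is the smallest value that 4 against 4 rats allow. Groups that are apart always give this value, so it adds nothing to the choice of these regions. Coordinates follow the table, whose build is RN4 by the study's methods. Genes are named only where a source of that build pairs them with the region.

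The region chr1:265254313-265255003, 2.64 Mb from the end, had the smallest p among the higher regions. It had 3.38, 1.48, 2.59 and 2.27 CPM in control rats 1, 3, 4 and 5 and 3.7, 5.28, 7.24 and 5.92 CPM in SE rats 6, 8, 9 and 10. Control rat 1 and SE rat 6 were close to each other. The log2 fold change was 1.18 (standard error 0.31) with an adjusted p of 0.400 in edgeR. The region chr12:46733739-46734546 lies 0.046 Mb from the end. It had 3.21 ± 0.936 CPM in controls and 6.48 ± 1.32 CPM in SE (SD, n = 4 each), a log2 fold change of 0.99 (standard error 0.27, adjusted p = 0.440 in edgeR). The region chr14:110863742-110864290 was the only hypermethylated region of the sparse ends. It had 1.69, 1.73, 1.03 and 0.827 CPM in the controls and 3.47, 4.56, 3.62 and 2.48 CPM in the SE rats, that is 4 to 7 tags per control library. Its log2 fold change was 1.4 (standard error 0.39, adjusted p = 0.457 in edgeR). The other 2 were chr12:44405845-44406373 with a log2 fold change of 1.16 and chr3:170078998-170080900 with 0.66, the longest of the 5 at 1902 bp. The former was 1.01 without SE rat 8 and the latter 0.56 without control rat 1 and 0.57 without control rat 4, and neither then passed p below 0.01. With all 10 libraries, of the 5 higher regions, those on chromosomes 1, 3 and 12 did not pass and the one on chromosome 14 was below the count filter.

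Of the 5 lower regions 4 lay at sparse ends. On chromosome 18, 2 of them were within 50 kb of each other. The region chr18:84264544-84265056 had 3.14, 3.71, 6.21 and 4.76 CPM in control rats 1, 3, 4 and 5 and 2.54, 1.44, 1.93 and 1.34 CPM in SE rats 6, 8, 9 and 10, a log2 fold change of -1.29 (standard error 0.34, adjusted p = 0.423 in edgeR). Its neighbour chr18:84300598-84301067 had 3.86 ± 0.252 CPM in controls and 1.49 ± 0.867 CPM in SE (SD, n = 4 each), a log2 fold change of -1.38. Both lie close to the limit of the distal window, at 2.98 and 2.95 Mb. The region chr1:267808641-267809236, 0.088 Mb from a denser end, had 3.68 ± 1.2 CPM in controls and 1.38 ± 0.452 CPM in SE, a log2 fold change of -1.37 (standard error 0.39, adjusted p = 0.463 in edgeR). The regions chr16:88219959-88220627 and chr2:257923808-257924437 had log2 fold changes of -1.39 and -1.32. Control rat 4 was far above the other controls in both. Without that rat they were -1.06 and -0.93 and no longer passed p below 0.01. With all 10 libraries both regions on chromosome 18 and the one on chromosome 2 did not pass.

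The region chr11:84850830-84851551 lies 2.88 Mb from the end of chromosome 11. The study lists it in an intron of Rtn4r, the gene of the Nogo receptor, a neuronal surface protein known for limiting axon growth in response to myelin. It had 2.18, 1.48, 1.29 and 2.27 CPM in control rats 1, 3, 4 and 5 and 2.54, 5.04, 4.10 and 4.01 CPM in SE rats 6, 8, 9 and 10. The groups were apart, with SE rat 6 near the controls. The log2 fold change was 1.09 (standard error 0.35, adjusted p = 0.539 in edgeR). The study chose this region on these samples, so its direction is not independent evidence. Without control rat 4 or SE rat 8 it no longer passed p below 0.01, with log2 fold changes of 0.96 in both cases, nor did it with all 10 libraries (0.81).

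The 3 distal regions with the most tags were far more precisely counted, and their groups overlapped. The region chr13:108741601-108742838 had 351, 159, 306 and 310 CPM in control rats 1, 3, 4 and 5 and 394, 378, 350 and 356 CPM in SE rats 6, 8, 9 and 10. Control rat 3 was low, and control rat 1 lay between SE rats 9 and 10. The log2 fold change was 0.39 (standard error 0.11, adjusted p = 0.448 in edgeR), and the exact permutation p was 0.0571. Without control rat 3 the log2 fold change was 0.20 and did not pass, whereas without control rat 1 it was 0.52 (adjusted p = 0.0062 in edgeR) and with loess offsets 0.65 (adjusted p = 0.000127 in edgeR). With edgeR's exact test, DESeq2 and all 10 libraries it was 0.39, 0.39 and 0.49 and did not pass p below 0.01. The region chr12:44065892-44067436 had 120 ± 18.1 CPM in controls and 137 ± 21.4 CPM in SE. The region chr5:172172321-172172812 had 95.9 ± 5.41 and 90.5 ± 8.48 CPM (SD, n = 4 each).

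**Figure D5:**
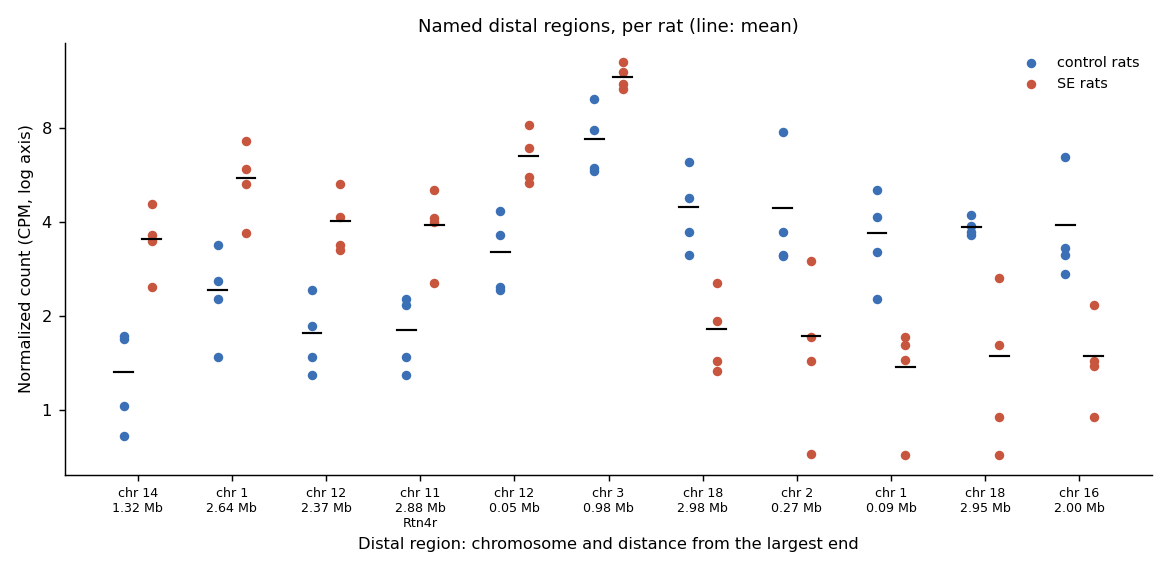
Normalized count (CPM, log axis) per rat of the 10 distal regions with the smallest p and groups apart and of the Rtn4r region, labelled by chromosome and distance from the largest end in Mb. Blue points are the 4 control rats, red points the 4 SE rats, and lines are means. In the 6 regions on the left every SE rat is above every control rat, and in the 5 on the right every SE rat is below.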

How the data were processed

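Methyl-capture libraries of the amygdala stimulation model were compared between 4 control and 4 SE rats. The deposited values are raw tag counts per region, which the authors made by aligning 36 bp single reads to the rat genome RN4 with BWA, comparing all pairs of libraries with MACS, merging the differing regions with BEDTools, removing duplicate tags and counting. The table therefore holds regions in which some pair of libraries differed, and local density counts these and not CpG sites. Each used library held 5499370 to 7179519 counts, and a tested region a median of 12.1 counts per library, so that counting error limits single regions.

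Regions with a count summed over the 8 libraries below the median of 70 were removed, leaving 291987. Counts were TMM normalized and compared by edgeR's two-sided quasi-likelihood F test (R 4.3.3, edgeR version 4.0.16), with an unadjusted p below 0.01 as the study's threshold and Benjamini-Hochberg values over all tested regions. Windows of 3 Mb, laid from the largest end of each chromosome inward and holding at least 100 counts, were fitted in the same way. CPM are counts scaled by the TMM-adjusted library size. For single regions this size was taken over the tested regions, with 3929736 to 5184797 tags per library. For windows and ends it was taken over all windows fitted, so CPM of regions and of ends are on different scales. The standard error of a log2 fold change was its size over the root of the F statistic. Fits were tested on simulated data with 1 dispersion for all regions. Of regions given a log2 fold change of 1, 68% reached p below 0.01 and 19% an adjusted p below 0.05 in edgeR. For a log2 fold change of 2 these shares were 100% and 95%. A change of the size of most calls here could therefore miss the adjusted threshold. Alternatives were edgeR's exact test, DESeq2 (version 1.42.0), library totals, upper-quartile, loess and density offsets, other filters, all 10 libraries, each rat left out, distal windows of 1 and 5 Mb, and density within 25 and 100 kb.

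Regions were named where an adjusted p was below 0.05, where p was among the 5 smallest in a direction with groups apart, where the study lists the region as shared between models, or where the mean normalized count was among the 3 highest. The members, lists and tests were chosen with earlier results of these data known. No RN4 genome or annotation was used here, so no sequence and no gene other than Rtn4r is given.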

Additional observations from a re-analysis of the deposited data

Results flagged for a closer look

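In 2 of the 70 groups of 4 rats examined, 1 rat stood far from the rest of its group by Dixon's criterion, which chance alone meets in about 1 of 20 groups. In chr16:88219959-88220627 control rat 4 had 6.47 CPM, and the next control had 3.31 CPM. In chr2:257923808-257924437 control rat 4 had 7.76 CPM, and the next control had 3.71 CPM. Both regions lie at sparse ends and had fewer tags in SE, and without that rat neither passed p below 0.01 in edgeR.

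Control rat 2, which the labels mark as discarded and which entered only the alternatives with all 10 libraries, had 2.61% of its tags in distal regions, above the 2.27% to 2.40% of the 4 control rats used. The labels give no reason for leaving it out.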

How the results depend on the processing

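No paired analysis was possible because the rat numbers are not shared between control and SE. The share of tested distal regions called hypermethylated was 0.235% with DESeq2 and 0.372% with all 10 libraries. Over all tested regions these shares were 0.139% and 0.282%. The share called hypomethylated was 0.207% with DESeq2, 0.290% with density offsets and 0.403% with at least 10 counts in every library. Over all tested regions these shares were 0.349%, 0.656% and 1.39%. With all 10 libraries 0.215% of distal regions were hypomethylated, and so were 0.215% of all tested regions. In a distal window of 1 Mb the share was 1.32%, against 1.07% of all tested regions. The median log2 fold change was 0.081 with upper-quartile scaling, 0.017 in a window of 1 Mb, -0.030 with all 10 libraries, and 0.057 to 0.085 with single rats left out. The difference from the density-matched interior was 0.037 in a window of 5 Mb and -0.016 with all 10 libraries. The difference in tag share was 0.0124 percentage points with all 10 libraries, 0.00231 in a window of 1 Mb and 0.253 in a window of 5 Mb. Higher ends numbered 6 with upper-quartile scaling and 0 with all 10 libraries. Lower ends numbered 0 with density offsets, 0 with all 10 libraries and 2 to 5 with single rats left out, with 3 or fewer without control rat 3, 4 or 5 or SE rat 6, 9 or 10. Distal regions with groups apart made up 1.12% with all 10 libraries, against 3.92% in the 8, a share that falls by construction when groups grow. Hypermethylated regions made up 75% of the distal calls with density offsets, 73.3% with at least 10 counts, 63.4% with all 10 libraries and 51.7% in the main analysis, and 46.7%, 30.7%, 56.8% and 35.3% of all calls. Of 228 values of the 14 named regions under alternatives, 206 kept direction and side of the threshold, 19 lost the call and 1 gained it, and chr5:172172321-172172812 changed sign under 2 of them, to 0.099 with loess offsets and 0.067 with all 10 libraries. The causes were not tested. Region calls use an unadjusted threshold and 4 rats per group, and tags measure captured DNA and not single cytosines.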

Other observations

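The discarded rats entered only the alternatives with all 10 libraries. At the 6 sparse ends control rat 2 had 0.238% of its tags, within the range of the 8 rats used, and SE rat 7 had 0.146%, below all of them. At the 14 denser ends control rat 2 had 2.38%, above all 8 rats used, and SE rat 7 had 2.06%. At the end of chromosome 16 the share was 0.0307% in control rat 2 and 0.0157% in SE rat 7, against 0.0294% to 0.0430% in the 8 rats used. Control rat 2 had no tag in 1.45% of the distal regions.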
